A study of Mus musculus with 14 samples.

Results

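The regions described here are places where LSD1 was listed in livers of YAP mice but not in livers of wild-type mice, and where no dimethylated histone H3 lysine 4 (H3K4me2) was listed in either genotype. They were chosen by the deposited lists themselves. Overlapping or touching entries of each LSD1 list were merged on chromosomes 1 to 19, X and Y, and a merged YAP region was kept if it had no base in common with a WT LSD1 region, a WT H3K4me2 region or a YAP H3K4me2 region. Of 2949 merged YAP LSD1 regions, 2442 (82.8%) were found in the YAP list only, and 748 of these (30.6%) had no listed H3K4me2. The absence from WT LSD1 and from H3K4me2 was therefore selected on and is no finding. A region missing from a list did not pass the authors' threshold, which does not show that the protein or mark was absent.

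The study measured H3K4me1, H3K4me2 and LSD1 by chromatin immunoprecipitation sequencing in livers of wild-type C57BL/6 mice (WT) and of YAP transgenic C57BL/6 mice, in which doxycycline turns the transgene on (YAP). Doxycycline at 50 mg/L for 10 days is given on every sample as the way YAP was induced, and the labels do not say whether WT mice also received it, which promoter or cell type drives the transgene, or the sex and age of the mice. Each of 3 antibodies was used on 2 replicates per genotype, with 1 input library per genotype, and 1 list was deposited for both replicates of an antibody and genotype. No value per replicate was therefore at hand, no test between genotypes could be made, and intervals below cover counting only. Whole liver was used, so fewer cells of a type and less LSD1 per cell cannot be told apart.

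LSD1, the product of Kdm1a, is a demethylase that takes methyl groups from mono- and dimethylated lysine 4 of histone H3. It works in complexes with CoREST and histone deacetylases and is known for turning off enhancers and genes, often brought to DNA by repressors such as GFI1 and REST. H3K4me2 marks active promoters and enhancers, and H3K4me1 marks enhancers. YAP is the co-activator held in check by Hippo signalling, and in liver it drives growth and biliary features through TEAD factors.

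The tissue label was checked on genes of known cell types. H3K4me2 lay within 1 kb of a gene boundary in 41 of 43 hepatocyte genes in WT and 40 in YAP. It did so in 14 (WT) and 15 (YAP) of 21 biliary and progenitor genes. The counts, WT first, were 3 and 5 of 14 macrophage genes and 4 and 5 of 14 stellate cell genes. They were 6 and 5 of 14 endothelial genes and 2 and 3 of 12 lymphocyte genes. Of all protein-coding genes, 59.7% had H3K4me2 there in at least 1 genotype. The WT LSD1 list has 1718 entries of 396 bp and the YAP list 3353 entries of 400 bp, so the longer list leaves more regions unmatched. The depth of the libraries is unknown from the files.

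Few of the 748 regions reach a promoter. Of the 21263 promoter windows of protein-coding genes in the RefSeq table for GRCm38.p6, which has mm10 coordinates, 19 windows of 18 genes were overlapped, each window holding 250 bases before and 50 after an annotated start site. The sequences below are shown because they are the promoter DNA that the LSD1 regions cover: the bases before the start site that lie inside the region, 5′ to 3′ on the gene's strand. They belong to the 5 regions of highest LSD1 signal that cover all 250 bases, plus Leng8, which like Phc2 holds 3 kinds of motif and has a start site inside the region. Capitals mark matches, on either strand, to the SP motif GGGCGG, the NFY motif CCAAT or the ETS motif CCGGAAG. Pafah2, a platelet-activating factor acetylhydrolase, lies on the plus strand and the bases are chr4:134396070-134396319. Pcx, the pyruvate carboxylase that feeds gluconeogenesis, is on the plus strand at chr19:4594069-4594318. Optn, an autophagy receptor, is on the minus strand at chr2:5064118-5064367. Anks4b, an adaptor of the brush border, is on the plus strand at chr7:120173608-120173857. Sucla2, a subunit of mitochondrial succinyl-CoA ligase, is on the plus strand at chr14:73552536-73552785. Leng8 is on the plus strand at chr7:4136899-4137055.
Pafah2: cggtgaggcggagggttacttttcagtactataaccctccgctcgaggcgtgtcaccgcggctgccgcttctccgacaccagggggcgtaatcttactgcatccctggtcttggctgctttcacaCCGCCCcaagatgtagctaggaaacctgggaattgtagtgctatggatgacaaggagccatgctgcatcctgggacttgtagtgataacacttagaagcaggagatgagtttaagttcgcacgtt
Pcx: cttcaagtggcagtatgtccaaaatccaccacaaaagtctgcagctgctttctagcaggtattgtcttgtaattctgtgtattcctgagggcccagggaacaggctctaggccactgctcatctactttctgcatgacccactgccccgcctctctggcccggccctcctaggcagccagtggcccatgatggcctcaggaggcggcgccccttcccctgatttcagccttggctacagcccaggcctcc
Optn: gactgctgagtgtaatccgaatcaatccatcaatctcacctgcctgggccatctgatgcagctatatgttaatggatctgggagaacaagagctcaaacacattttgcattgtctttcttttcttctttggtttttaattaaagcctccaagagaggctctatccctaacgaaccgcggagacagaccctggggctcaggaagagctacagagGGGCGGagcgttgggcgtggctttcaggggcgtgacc
Anks4b: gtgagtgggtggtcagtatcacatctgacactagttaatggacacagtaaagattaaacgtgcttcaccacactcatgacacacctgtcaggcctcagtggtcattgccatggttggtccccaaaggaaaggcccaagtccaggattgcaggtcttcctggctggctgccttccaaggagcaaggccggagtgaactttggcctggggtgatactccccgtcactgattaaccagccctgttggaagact
Sucla2: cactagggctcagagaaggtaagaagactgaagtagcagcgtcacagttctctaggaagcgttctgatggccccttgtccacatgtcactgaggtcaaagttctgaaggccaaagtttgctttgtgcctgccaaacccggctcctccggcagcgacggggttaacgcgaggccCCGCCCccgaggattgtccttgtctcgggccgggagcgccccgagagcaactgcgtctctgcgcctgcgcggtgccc
Leng8: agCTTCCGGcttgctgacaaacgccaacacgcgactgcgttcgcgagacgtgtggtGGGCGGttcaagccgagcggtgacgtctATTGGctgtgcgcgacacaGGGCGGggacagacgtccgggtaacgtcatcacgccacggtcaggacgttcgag

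Pafah2, Optn and Sucla2 each hold 1 kind of match, the SP motif, and Leng8 holds SP, NFY and ETS matches. Pcx and Anks4b hold no match to any of the 15 motifs searched. The GC content of these stretches ran from 50.0% in Optn through 52.8% in Anks4b, 53.6% in Pafah2, 58.0% in Pcx and 61.2% in Sucla2 to 63.7% in Leng8. Anks4b and Pcx are poor in CpG, with 3 and 4 CpG in 250 bases, against 13 in Pafah2 and 18 in Sucla2. Over the whole 19 windows the median GC content was 58.7%, against 61.3% over the 684 windows overlapped by YAP-only LSD1 regions on H3K4me2 and 56.3% over all windows. The median number of CpG per window was 17.0, against 22.0 and 13.0.

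Motif matches in the 19 windows are a description of few sequences. They were counted over whole windows, so a match can lie outside the LSD1 region. In the bases that a window shared with its region there was no YY1 match, and an ETS match at Leng8 alone. The windows of Ccdc59 and Mettl25 overlap each other. The SP motif GGGCGG was in 11 windows (57.9%, Wilson 95% interval 36.3 to 76.9), against 65.5% of windows under YAP-only regions on H3K4me2 and 46.2% of all windows. The NFY motif CCAAT was in 7 (36.8%, 19.1 to 59.0; 38.2% of all windows) and the ETS motif CCGGAAG in 4 (21.1%, 8.51 to 43.3; 11.6% of all windows). The YY1 motif AAGATGGCG was in 3 (15.8%, 5.52 to 37.6), against 3.80% under YAP-only regions on H3K4me2 and 1.83% of all windows. The TEAD motif GGAATG was in 1 window (5.26%, 0.935 to 24.6), against 13.6% of all windows. The motifs TGANTCA for AP-1, GCGCATGCG for NRF1, CACGTG for E-box proteins and AATCACNGC for GFI1 were in 1 window each, against 6.99%, 2.35%, 7.84% and 1.05% of all windows. The FOXA motif TGTTTAC, the HNF4A motif CAAAGTCCA, the REST motifs TTCAGCACC and GGACAGCGC, the CTCF core motif and the CREB motif TGACGTCA were in none of the 19, and in 3.01%, 0.451%, 0.414%, 0.536%, 0.0611% and 2.23% of all windows. Both strands were searched, and the single GFI1 match shares bases with an NFY match.

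The 748 regions lay mainly away from gene boundaries. Between protein-coding genes lay 392 (52.4%, 48.8 to 56.0), inside genes and more than 1 kb from their boundaries 310 (41.4%, 38.0 to 45.0), and within 1 kb of a gene boundary 46 (6.15%, 4.64 to 8.11). The last share moved with the rule for membership, to 13.7% when at least 50% of an LSD1 region had to be covered to count as overlap and to 3.68% when H3K4me2 or WT LSD1 within 1 kb counted. YAP-only LSD1 regions on H3K4me2, 1694 in number, had 47.0% within 1 kb of a boundary, 31.1% inside and 21.9% between genes. The difference, as the 748 minus those on H3K4me2 with Newcombe 95% intervals, was -40.9 points at gene ends (-43.7 to -37.8), 10.4 points inside (6.25 to 14.6) and 30.5 points between genes (26.4 to 34.5). H3K4me2 is a mark of gene starts and was used to choose the 748, so this contrast follows in part from the choice.

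**Figure D1:**
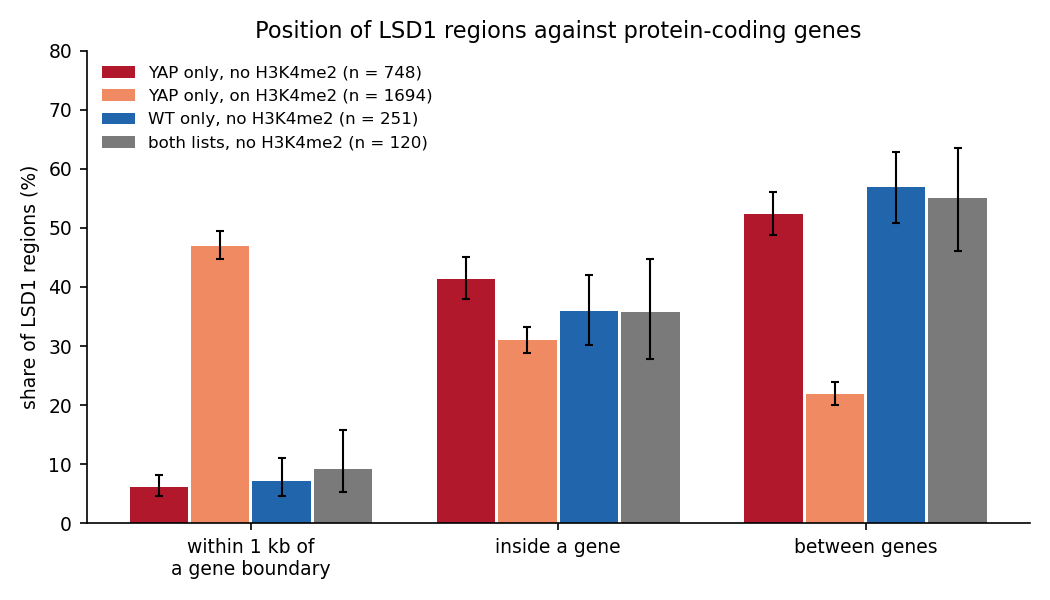
Share of LSD1 regions (%) within 1 kb of a protein-coding gene boundary, inside a gene or between genes, for 4 sets of LSD1 regions; bars are shares and lines are Wilson 95% intervals. The 748 YAP-only regions without H3K4me2 have 6.15% at gene ends, against 47.0% of those on H3K4me2, and lie near the other sets without H3K4me2.

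Sets chosen by the same absence of H3K4me2 differed less. Of 251 WT-only LSD1 regions without H3K4me2, 7.17% were at gene ends, 35.9% inside and 57.0% between genes. The differences from the 748 were -1.02 points (-5.18 to 2.22), 5.59 points (-1.44 to 12.3) and -4.57 points (-11.5 to 2.57), and all 3 intervals include 0. Of 120 LSD1 regions in both lists without H3K4me2, 9.17% were at gene ends and 55.0% between genes. When all 49943 annotated genes were used in place of protein-coding ones, 11.8% of the 748 were at gene ends and 40.1% between genes, against 55.1% and 12.7% of YAP-only regions on H3K4me2.

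The 748 regions were also far from boundaries in base pairs. The median distance from a region's centre to the nearest boundary was 23645 bp (20848 to 28558), with quartiles at 7374 and 70231 bp. It was 1658 bp for YAP-only regions on H3K4me2, 19145 bp (15752 to 21834) for WT-only and 14409 bp (10252 to 21531) for common regions without H3K4me2. More than 50 kb from any boundary lay 247 of the 748 (33.0%), against 25.9% of WT-only regions without H3K4me2, a difference of 7.12 points (0.504 to 13.2). The corresponding share of common regions without H3K4me2 was 19.2%, a difference of 13.9 points (5.25 to 20.8). These differences depend on the distance chosen. Beyond 10 kb the differences were 0.985 points (-5.49 to 7.82) from WT-only and 8.32 points (-0.683 to 17.8) from common regions, and beyond 100 kb they were 4.50 points (-0.941 to 9.20) and 5.55 points (-2.01 to 11.1). All 4 of these intervals include 0.

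**Figure D2:**
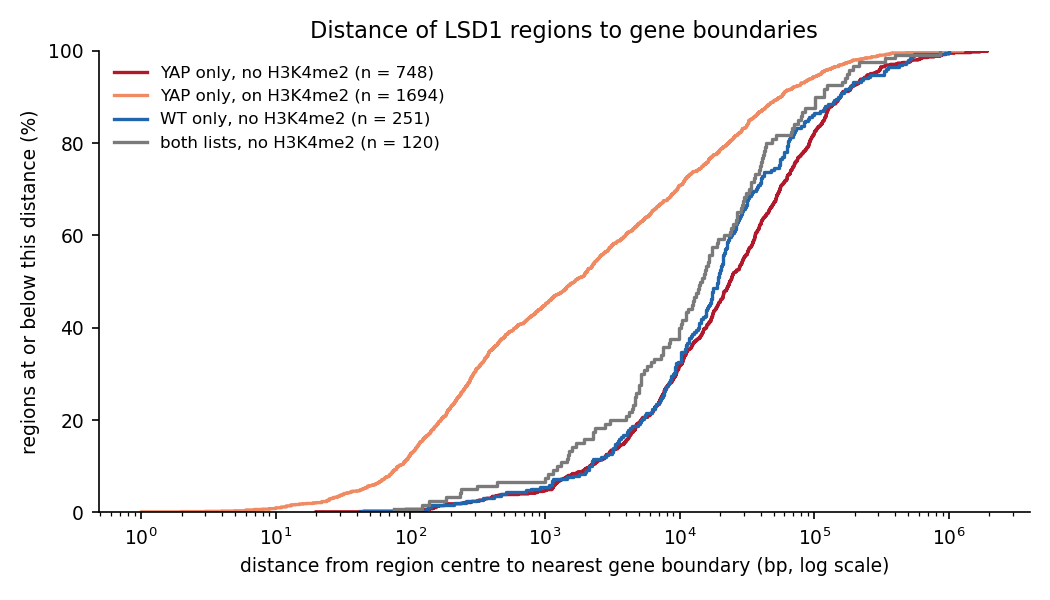
Cumulative share of LSD1 regions (%) against the distance from the region's centre to the nearest protein-coding gene boundary (bp, log scale), for the same 4 sets; distances of 0 are drawn at 1. The median of the 748 regions is 23645 bp, against 1658 bp for YAP-only regions on H3K4me2, and at 50 kb the curve of the 748 is the lowest of the 4.

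Where they did touch gene ends, the 748 were not restricted to starts. The strand was known for 34 of the 46 regions at gene ends: 20 (58.8%, 42.2 to 73.6) were at the upstream boundary and 14 at the downstream boundary alone. Of YAP-only regions on H3K4me2 with a known strand, 658 of 677 (97.2%, 95.7 to 98.2) were at the upstream boundary, a difference of -38.4 points (-55.0 to -23.5). H3K4me2 is a mark of gene starts and was used to choose both sets. This contrast therefore follows in part from the choice. WT-only regions without H3K4me2, a set chosen by the same absence of the mark, had 11 of 17 (64.7%, 41.3 to 82.7) upstream.

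A region of the 748 lay at a boundary of 51 genes. H3K4me2 lay within 1 kb of a boundary in 40 of these, in 3 in the YAP list alone and in 2 in the WT list alone, and it did so in 59.7% of all protein-coding genes (13076 of 21887, with 505 in the YAP list alone and 348 in the WT list alone). The strongest region at a gene end, by the signal the authors deposited, was at Lep, the gene of leptin, at chr6:29073731-29074332, with signal 63.1; no H3K4me2 was listed in Lep or within 5 kb of it in either genotype, and the nearest was 25.4 kb from the region. The region shared by Ccdc59 and Mettl25 at chr10:105840756-105841354 had signal 50.5 and lay 173 bp from H3K4me2. Sdc1, the heparan sulfate proteoglycan syndecan-1, had signal 49.1 at chr12:8793694-8794093, 11.0 kb from H3K4me2. The gene with 5 kb on both sides had 8.97 kb (WT) and 8.16 kb (YAP) covered by H3K4me2, so the unmarked region there lay in a marked gene.

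Esco1, an acetyltransferase of cohesin, had signal 48.0 at chr18:10610213-10610612, and Pafah2 had 45.6 at chr4:134395933-134396332, 423 bp and 46 bp from H3K4me2. Plvap, a protein of endothelial fenestrae, had signal 43.7 at chr8:71496416-71496815, inside its neighbour Gtpbp3. With 5 kb on both sides the H3K4me2 length of Plvap was 2.65 kb for WT and 0.995 kb for YAP. Rfxank, a subunit of the factor that binds MHC class II promoters, had 43.6 at chr8:70129409-70129808, and Dppa3, a germ cell gene, had 43.2 at chr6:122625084-122625483. Tarsl2, a threonyl-tRNA synthetase, had 42.7 at chr7:65644328-65644727, and Slc25a33, a mitochondrial nucleotide carrier, had 42.6 at chr4:149775223-149775622. Of these 10 regions, Ccdc59/Mettl25, Esco1, Pafah2, Tarsl2 and Slc25a33 lay within 464 bp of H3K4me2, so several of the strongest gene-end regions border on the mark rather than lie far from it.

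Inside genes, the 310 regions lay in 290 genes. These hosts were long, with a median of 108 kb, against 17.2 kb for all 21887 protein-coding genes. Longer genes offer more room for a region away from their boundaries, so this contrast follows in part from the choice of regions inside genes. Median host lengths were 87.9 kb for WT-only and 65.3 kb for common regions without H3K4me2. For YAP-only regions on H3K4me2 the median host length was 65.5 kb. H3K4me2 marked a boundary of 228 of the 290 (78.6%, 73.5 to 82.9), against 59.7% of all protein-coding genes, a difference of 18.9 points (13.8 to 23.3). The share was 79.1% for hosts of YAP-only regions on H3K4me2, a difference of -0.512 points (-6.61 to 5.28). Genes that hold an LSD1 region off H3K4me2 thus had the mark at an end about as often as genes that hold one on it; length was not matched in these comparisons.

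The strongest regions inside genes were in Tom1l2, an endosomal sorting adaptor, with signal 65.2 at chr11:60339622-60340021, and in Gls2, the liver-type glutaminase, with 62.4 at chr10:128201850-128202249. Gls2 carried H3K4me2 on 12.2 kb (WT) and 10.3 kb (YAP) over the gene and 5 kb on both sides, and its LSD1 region lay 1.14 kb from the mark. Kazn, a protein of cell junctions, had 61.1 at chr4:142229647-142230254, Frmd4b had 60.8 at chr6:97409833-97410232, and Coq8b, a kinase-like protein of coenzyme Q synthesis, had 60.7 at chr7:27255761-27256160. Around the Coq8b region H3K4me2 covered 1537 bp within 10 kb in WT and 3520 bp in YAP. The regions in Tom1l2 and Frmd4b had no H3K4me2 within 10 kb in either genotype.

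More than 1 of the 748 lay in 21 genes. Nav2, of 651 kb, held 3, with signals 33.3, 36.3 and 33.0, and H3K4me2 took up 14.9 kb (WT) and 21.7 kb (YAP) of the gene with 5 kb on both sides. Frmd4b held signals of 60.8 and 39.2, with 22.1 kb (WT) and 16.5 kb (YAP) of H3K4me2. Rarb, a retinoic acid receptor, held 38.0 and 53.2, with H3K4me2 on 6.85 and 6.15 kb. Shb, a signalling adaptor, held 49.3 and 35.5, with 30.3 and 18.8 kb, again WT first. Slc39a14, a transporter of zinc and manganese, held 47.6 and 20.5, with 17.0 and 13.0 kb. Cers6, a ceramide synthase, held 45.9 and 42.8, with 8.34 and 11.8 kb. The 2 genotypes thus differed in either direction at such genes. Atp2b4 held 49.7 and 31.8, Ergic1 held 46.2 and 44.8, Capn2 held 42.9 and 36.7, and Dnajc5b held 28.5 and 42.9.

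Between genes lay the 5 regions of highest signal among all 748. The highest, 85.0, was at chr10:111329336-111329735, 27.6 kb from Bbs10, a chaperonin-like gene of cilium biology. The next, 81.0, was at chr1:118741253-118741652, 56.1 kb from Tfcp2l1, a transcription factor. It lay 111 kb from the nearest H3K4me2. The others were 1.37 kb from Lrrc74a (71.3, chr12:86770393-86770792), 24.5 kb from Inpp5a (70.1, chr7:139364127-139364526) and 30.0 kb from Hnrnpll, a splicing regulator (67.6, chr17:79998882-79999480). The nearest gene is given as a position, and no link between region and gene was measured.

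Most of the 748 had no other of the 748 within 10 kb. The median distance to the next of them was 656978 bp, 43 lay within 10 kb of another and 4 within 1 kb. Distances to the other YAP LSD1 regions were not measured, so this does not show that the sites are isolated. The closest pairs were in Oscp1, 805 bp apart, near Tomm20, 847 bp apart, near Ank, 1388 bp apart, and near Tgfa, a growth factor of the EGF family, 1519 bp apart with signals 46.5 and 52.1. A single deposited entry made up 667 of the regions, 80 joined 2 entries and 1 joined 3. Long non-coding RNA genes were overlapped by 103 (13.8%), against 14.5% of YAP-only regions on H3K4me2, and no region overlapped a tRNA gene, against 20 (1.18%) of those on H3K4me2. Chromosome X held 4 of the 748.

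The LSD1 signal of the 748 was close to that of YAP-only regions on the mark. Its median was 35.1 (34.6 to 35.7), with a range of 11.3 to 85.0, against 34.6 (34.3 to 35.1) on H3K4me2, and these intervals overlap. LSD1 regions in both lists without H3K4me2 had a median of 43.1 (38.9 to 46.4) in YAP. A deposited score of 1000, the highest in the list, was reached by 175 of the 748 (23.4%), against 19.5% on H3K4me2, a difference of 3.86 points (0.364 to 7.51), and 55.0% of the common regions. Common regions on H3K4me2 also stood higher, with a median signal of 39.9 and 47.3% at score 1000. The 748 were chosen as absent from the WT list, so their contrast with common regions may follow in part from the choice. Median signals were 37.0 at gene ends, 35.3 inside and 34.6 between genes. What the score measures is not given in the sources used here.

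**Figure D3:**
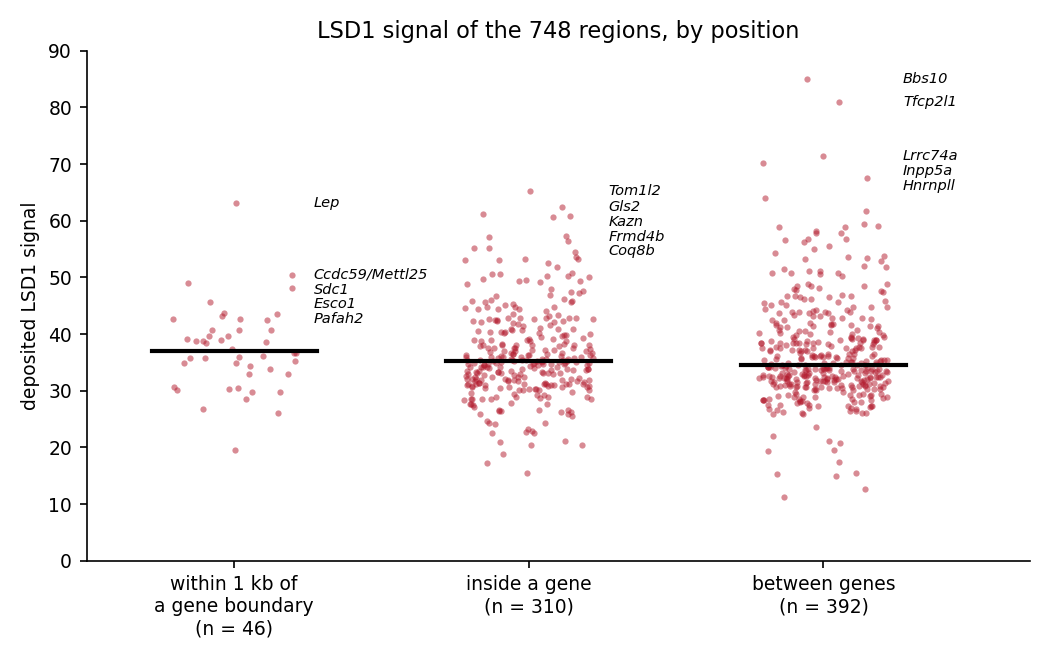
Deposited LSD1 signal (enrichment value of the authors, highest entry of each merged region) of each of the 748 regions, in 3 classes of position; points are regions, spread sideways at random, black lines are medians, and the names to the right list the 5 highest of each class from the top, some moved down to be legible. Medians are 37.0, 35.3 and 34.6, and the 5 highest signals of all lie between genes.

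No difference in position between high-scoring and lower-scoring members of the 748 exceeded counting error. Of 175 regions with score 1000, 56.6% were between genes and 4.57% at gene ends, against 51.1% and 6.63% of the other 573, differences of 5.44 points (-3.02 to 13.7) and -2.06 points (-5.30 to 2.48). H3K4me2 within 1 kb was near 26.3% and 21.5%, a difference of 4.82 points (-2.12 to 12.5). The intervals allow differences of several points either way.

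How far the 748 lay from H3K4me2 is in part fixed by the choice and is given as a description. The median distance to the nearest H3K4me2 region of either genotype was 8104 bp, with quartiles at 1468 and 25240 bp. Within 100 bp lay 67, within 1 kb 169 (22.6%), beyond 10 kb 334 (44.7%) and beyond 100 kb 57 (7.62%). The regions just inside the threshold were at Anks4b, Bcl2l1 and Dnajc5b, each 3 bp from H3K4me2, with signals of 38.4, 28.6 and 28.5. Just outside it were YAP-only regions at Pcp4l1, Gatad2a and Trak1, which overlap H3K4me2 by 1, 3 and 3 bp and have signals of 32.3, 34.5 and 31.5. On the other side of the rule, the nearest to WT LSD1 were at Oscp1, Pitpnc1 and Plpp3, at 72, 91 and 114 bp, and the smallest WT overlaps left out were at Lrrn4, Cyb5a and Slc9a8, of 85, 99 and 135 bp. The median distance to the nearest WT LSD1 region was 302536 bp, and 15 of the 748 had one within 1 kb.

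Which genotype the nearby H3K4me2 came from was not used to choose the regions. For the 414 regions with H3K4me2 within 10 kb, the nearest H3K4me2 region was in both lists for 190 (45.9%), in the YAP list alone for 132 (31.9%) and in the WT list alone for 92 (22.2%). For WT-only LSD1 regions without H3K4me2 the order was turned round: 13 of 136 (9.56%) had a nearest region in the YAP list alone and 64 (47.1%) in the WT list alone. The differences were 22.3 points (14.9 to 28.4) and -24.8 points (-34.0 to -15.6). LSD1 regions in both lists without H3K4me2 lay between, with 16.0% and 34.7%. Of all 60078 merged H3K4me2 regions, 18.6% were in the YAP list alone and 23.8% in the WT list alone. H3K4me2 listed in 1 genotype alone was therefore nearest to LSD1 regions of that genotype more often than to those of the other.

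**Figure D4:**
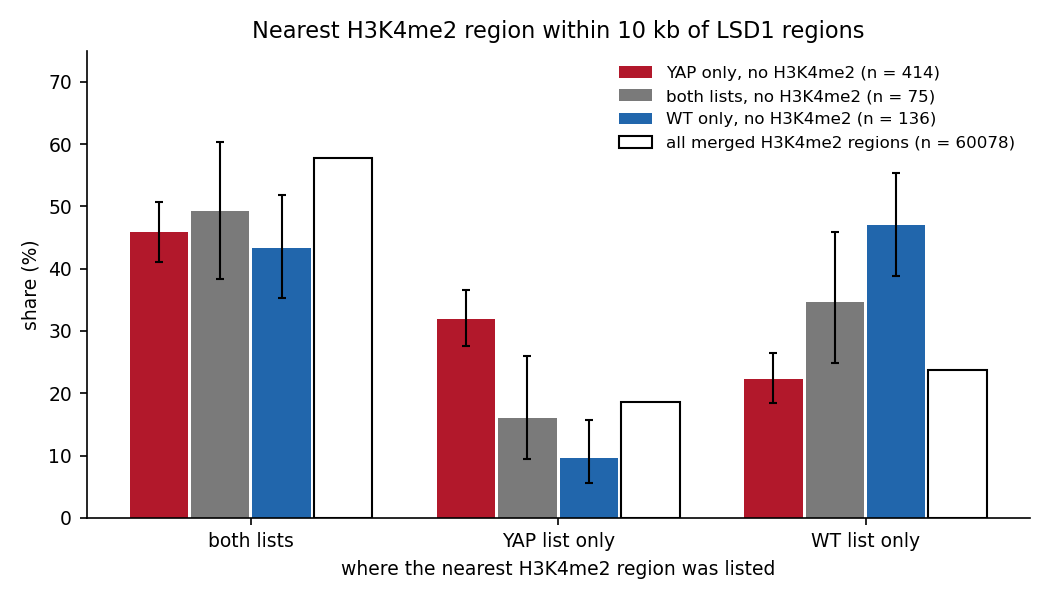
Share (%) of LSD1 regions without H3K4me2 whose nearest H3K4me2 region within 10 kb was in both lists, in the YAP list only or in the WT list only; lines are Wilson 95% intervals, and open bars show all merged H3K4me2 regions. The YAP-only regions have 31.9% in the YAP list only, against 9.56% of the WT-only regions.

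Bases covered by H3K4me2 around the regions also set the 748 apart from WT-only regions without H3K4me2. Here, however, common and WT-only regions were close to each other. Of the 414 regions, 213 had more H3K4me2 bases within 10 kb in YAP and 201 had fewer, which is 51.4% with more (46.6 to 56.2). The summed length was 744 kb in WT and 736 kb in YAP. The share with more in YAP was 39.6% (37.3 to 42.0) around YAP-only regions on H3K4me2, 31.6% (24.4 to 39.8) around WT-only regions without H3K4me2 and 32.0% around common regions without it. The differences from the 748 were 11.8 points (6.49 to 17.1), 19.8 points (10.3 to 28.5) and 19.4 points (7.25 to 30.0). The counted bases include the region itself. There, regions on H3K4me2 carry the mark by choice and the 748 have none. The first difference therefore draws in part on bases used for the choice. Around the 748 H3K4me2 was thus about evenly split between genotypes, whereas around the other LSD1 sets it covered fewer bases in YAP at most regions. The WT H3K4me2 list holds 54219 regions and the YAP list 51676, and the part of list length in these shares was not tested.

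**Figure D5:**
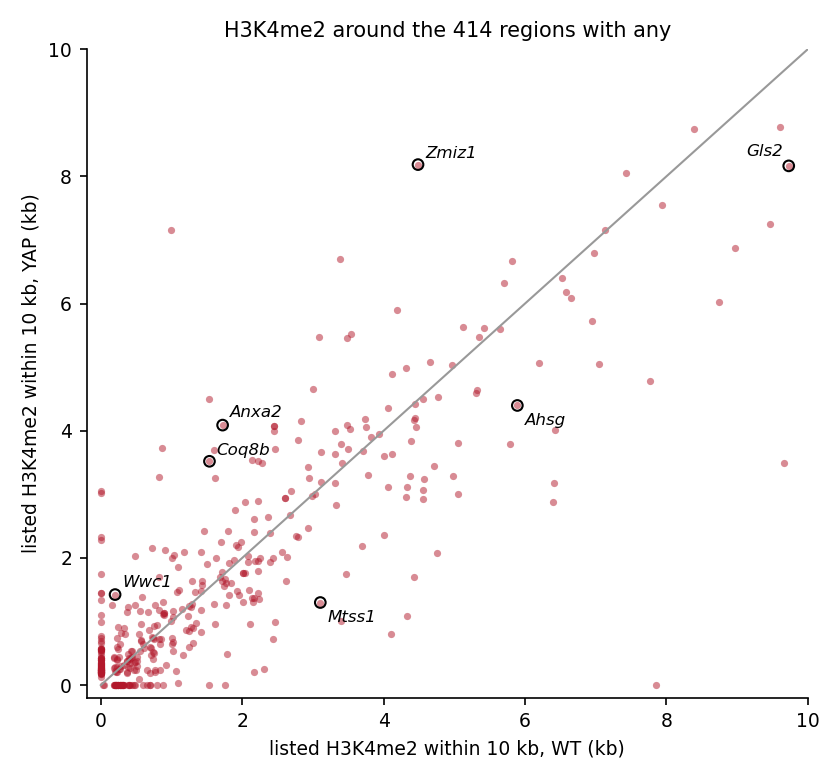
H3K4me2-covered length (kb) within 10 kb of each of the 414 regions with any, in WT (horizontal) and YAP (vertical); points are regions, the line marks equal length, and circles mark regions at genes named in the text. The points lie on both sides of the line, 213 above and 201 below, with Zmiz1, Anxa2, Coq8b and Wwc1 above it and Ahsg, Mtss1 and Gls2 below.

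H3K4me1 overlapped few of the regions: 10 of 748 (1.34%, 0.728 to 2.44), 8 by the YAP list and 3 by the WT list. The share was 1.71% for YAP-only regions on H3K4me2, a difference of -0.375 points (-1.33 to 0.846), and 1.99% for WT-only regions without H3K4me2. The H3K4me1 lists are short, with 5905 and 6274 regions, so a low overlap does not show that the mark was absent. Mtss1, an actin regulator, was overlapped in both genotypes at chr15:59046643-59047042, with 3105 bp of H3K4me2 within 10 kb in WT and 1299 bp in YAP. Kcnk3, a potassium channel, and Igf1, the growth factor secreted by liver, were overlapped in WT alone, at chr5:30615543-30615942 and chr10:87925603-87926002. The Igf1 region had LSD1 signal 35.3 and lay 680 bp from H3K4me2.

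The other 7 overlapped H3K4me1 in YAP alone, and 5 of them are named here. Zmiz1, a transcriptional co-regulator, was overlapped at chr14:25472592-25472991, with 4487 bp of H3K4me2 within 10 kb in WT and 8186 bp in YAP. Zc3h3 was overlapped at chr15:75828136-75828535. Between genes, such regions lay 71.9 kb from Arid1b, a subunit of the BAF remodelling complex, 114 kb from Jcad, a junctional protein, and 454 kb from Gdf6, a bone morphogenetic protein. The last had no H3K4me2 within 468 kb.

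Of 21887 protein-coding genes, 433 (1.98%) had at least 1 of the 748 regions inside the gene or within 5 kb. Among 313 genes of 14 lists (YAP targets, Hippo, polyamine and LSD1 genes, liver and other cell type genes, cell cycle and growth restraint), 16 did (5.11%, 3.17 to 8.14). The lists were put together with earlier results of these data known, and gene length was not matched, so the higher share is a description. The same genes had YAP-only LSD1 on H3K4me2 in 35 cases (11.2%), against 7.55% of all genes.

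Of 25 YAP target genes, 3 had such a region, and all 3 lay inside the gene. Wwc1, the Hippo regulator KIBRA and itself a YAP target, held one at chr11:35963577-35964208 with signal 28.6, 16.6 kb from its start site. H3K4me2 within 10 kb of it covered 202 bp in WT and 1424 bp in YAP. Asap1, an Arf GTPase-activating protein, held one at chr15:64345082-64345481 with signal 35.6 and no H3K4me2 within 10 kb. Crim1, a membrane protein that binds bone morphogenetic proteins, held one at chr17:78208838-78209237 with signal 33.0, 8.79 kb from its start and 1.88 kb from H3K4me2. Wwc1 was the single gene of 26 in the Hippo list, and YAP-only LSD1 on H3K4me2 was found at 6 of these 26. The shares of all protein-coding genes were again 1.98% and 7.55%.

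Of 23 genes of polyamine metabolism and eIF5A hypusination, the pathway named in the study's title, 2 had a region. Azin2, an antizyme inhibitor that relieves ornithine decarboxylase of its inhibitor, held one with signal 53.6 at chr4:128950113-128950788, rank 36 of the 748, and 10.6 kb from H3K4me2. Over Azin2 and 5 kb on both sides the H3K4me2 length was 1.76 kb for WT and 1.40 kb for YAP. Oaz2, an antizyme that inhibits ornithine decarboxylase, had one 4578 bp outside the gene, upstream of its start, at chr9:65671570-65671969 with signal 33.4, and 1.26 kb from H3K4me2. None of the 21 genes of LSD1 complexes had one, which in so short a list is near the 1.98% of all protein-coding genes.

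Of 43 hepatocyte genes, 3 had a region, against 13 with a YAP-only LSD1 region on H3K4me2. Abcb11, the bile salt export pump, held one inside at chr2:69296226-69296625 with signal 28.3, 39.7 kb from H3K4me2. Ahsg, the plasma protein fetuin-A, had one 1774 bp outside the gene at chr16:22901226-22901625 with signal 26.1. Over Ahsg with 5 kb on both sides the H3K4me2 length was 9.58 kb for WT and 4.70 kb for YAP.

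Of 21 biliary and progenitor genes, 3 had a region inside, where 1.98% of all protein-coding genes had a region inside or within 5 kb. Anxa2, an annexin, held one at chr9:69457622-69458021 with signal 32.8, 4.14 kb from its start and 116 bp from H3K4me2, which took up 1.72 kb (WT) and 4.09 kb (YAP) of the gene and its surroundings. Prom1, the progenitor marker prominin-1, held one at chr5:43998250-43998649 with signal 28.9, with 1.67 and 3.97 kb of the mark, WT first. Covered length was thus longer in YAP at Anxa2 and Prom1. The part of a change in the number of biliary cells in these values was not tested.

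Of 25 cell cycle genes, Ccnd1, the cyclin of G1 entry, had a region 1718 bp outside at chr7:144927813-144928212 with signal 29.3. Mcm4, a subunit of the replicative helicase, had one 6 bp outside at chr16:15637407-15637806 with signal 30.5. The first lay inside the neighbour LTO1 and the second overlapped the neighbour Prkdc. H3K4me2 over Ccnd1 and its surroundings spanned 5.79 kb (WT) and 6.68 kb (YAP), and over Mcm4 4.12 and 3.63 kb. Of 23 growth-restraining genes, Smad3, which carries TGF-beta signals, held 2 regions with signals 42.7 and 34.2, 58.6 and 101 kb from its start and 46.7 and 42.0 kb from H3K4me2. Dusp1, a phosphatase of MAP kinases, had one 3798 bp outside the gene, upstream of its start, at chr17:26512271-26512670 with signal 35.5. Of 14 endothelial genes, Lyve1, a hyaluronan receptor of sinusoids, had one 2013 bp outside at chr7:110848194-110848593 with signal 35.6; the region had 3522 bp of H3K4me2 within 10 kb in WT and 4022 bp in YAP, none of it in the gene or within 5 kb. None was found at 14 macrophage, 14 stellate cell, 12 lymphocyte, 28 neuronal or 28 developmental transcription factor genes. Of all protein-coding genes 1.98% had a region, so finding none in lists this short is near that share.

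Gene families named by symbol were also counted. Solute carriers had a region at 17 of 375 genes (4.53%, 2.85 to 7.14) and cytochromes P450 at 5 of 99 (5.05%, 2.18 to 11.3), against 1.98% of all protein-coding genes. The P450 genes were Cyp51, of cholesterol synthesis, Cyp7b1, of oxysterol and bile acid metabolism, Cyp2u1, Cyp3a59 and Cyp4f13. Zinc finger genes with Zfp symbols stood at 8 of 400 (2.00%, 1.02 to 3.90). Olfactory receptors had 2 of 1110 (0.180%, 0.0494 to 0.655) and vomeronasal receptors 0 of 355 (0 to 1.07). Protocadherins had 1 of 69, keratins 2 of 112 and Hox genes 0 of 39. MicroRNA genes, which are not among the protein-coding genes behind the 1.98%, had 5 of 1180 (0.424%, 0.181 to 0.988). The intervals of solute carriers and P450 genes lie above 1.98% and those of both receptor families below it; gene length and density were not matched.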

How the data were processed

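Chromatin of mouse liver was digested with micrococcal nuclease, immunoprecipitated with an enzymatic kit and amplified by 15 cycles of PCR, per the labels' protocols. Reads were handled on mm10 with BWA, Trimmomatic 0.39, Picard 1.126, SAMtools 1.7, deepTools 3.3.0 and bedtools 2.26.0, per the submitters' processing notes. How and at what threshold peaks were called, and whether inputs entered, is not given in the sources used here. The authors deposited 1 list per antibody and genotype, so replicates were combined before deposit, in a manner not stated. The score (540 to 1000 for LSD1) and the signal deposited by the authors are their own values per region, and were used to describe, rank or filter regions within a list.

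From these lists, touching or overlapping LSD1 entries were merged (3353 to 2949 in YAP and 1718 to 1500 in WT), a merged region taking the highest score and signal of its entries, and overlap meant at least 1 bp in common. Gene boundaries came from a RefSeq gene table of GRCm38.p6 with 21887 protein-coding genes on these chromosomes, without exons or strand. Start sites, strand and promoter sequence came from a RefSeq promoter table with entries for 17492 of these genes and none on chromosome 18. Strand is therefore given only for genes found there. No genome was given, so exons, introns and the sequence of regions away from promoters were not used here. Shares carry Wilson 95% intervals, differences of shares Newcombe 95% intervals and medians binomial order-statistic intervals, which treat regions as independent. No test was made, because no value per replicate was at hand, and the depth of the libraries is unknown.

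The regions, gene lists and measures were chosen with earlier results of these data known. Named regions were, by signal, the 10 highest at gene ends, 5 inside and 5 between genes, every region in or within 5 kb of a listed gene, up to 10 genes with at least 2 regions, up to 8 regions overlapping H3K4me1, and 3 on each side of each threshold. Predicted genes were counted but not named, and 2 regions at listed genes are counted but not reported here. Close pairs and P450 genes are named outside this rule. Of 314 listed genes 313 were found among protein-coding genes, H19 being the exception. Python 3.11.15, numpy 2.4.6, pandas 2.3.3, scipy 1.17.1 and matplotlib 3.10.9 were used, and the overlaps were checked against bedtools 2.31.1 on simulated lists.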

Additional observations from a re-analysis of the deposited data

How the results depend on the processing

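No paired analysis was possible because each antibody and genotype has 1 deposited list for both replicates. The planned GC content of the regions was not run, since no genome was given. Of 71 recomputed values 48 stayed within the interval of the reported value, or within 1.5 times of a reported number of regions, none changed direction, and the gene-end share of the 748 regions stayed at least 33.3 points below that of YAP-only regions on H3K4me2 in every alternative run. Counting H3K4me2 or WT LSD1 within 1 kb as overlap left 571 regions, 24.0% of YAP-only regions without H3K4me2 and 3.68% at gene ends. Asking for at least 50% of the LSD1 region to be covered gave 1068 regions, 43.0% without H3K4me2, 13.7% at gene ends, 46.3% between genes and a gene-end difference of -36.7 points. The higher-signal 50% of YAP LSD1 entries gave 414 regions with a median signal of 40.0, and a YAP list cut to the length of the WT list gave 422 with a median of 39.8. The higher-score 50% of H3K4me2 gave 41.9% without H3K4me2, 2.54% on H3K4me1 and a difference of -47.8 points. Unmerged entries had a median signal of 34.1. Gene ends of 250 bp gave 3.61% and -33.3 points, and gene ends of 5 kb gave 19.9% at gene ends, 35.4% inside and 44.7% between genes. With all annotated genes these shares were 11.8%, 48.1% and 40.1%. H3K4me1 within 1 kb was near 5.48%. Each alternative redraws which regions or genes count, and the cause of each shift was not tested further. Of 45 named regions, 31 stayed when 1 kb counted as overlap, 30 among the higher-signal entries and 31 in the shortened list, and all 45 under the other alternatives of the rule. Those others only loosen the rule or leave entries unmerged, so no named region could be lost. Their result was fixed in advance, although it counts among the 48.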
